A study of Mus musculus with 56 samples.

Results

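The 39 mouse genes described here carry the symbols Psma, Psmb, Psmc or Psmd followed by a number, which is the rule that chose them, and they encode subunits of the proteasome together with 3 of its assembly chaperones. They were taken out of 18193 genes on the array, with 1 probe set per gene, that of highest mean. By textbook role they fall into 7 alpha ring subunits, 7 beta ring subunits, 9 subunits of the regulatory base, 8 of the lid, 3 chaperones of base assembly, the 3 immune subunits Psmb8, Psmb9 and Psmb10, and 2 subunits restricted to other tissues. The alpha ring, beta ring, base and lid members, 31 genes, are called constitutive below.

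The proteasome is the barrel-shaped protease that degrades ubiquitin-tagged proteins, and in skeletal muscle it carries out much of the protein breakdown of atrophy. Its core is made of stacked alpha and beta rings, with the catalytic sites inside the beta rings. The regulatory particle on top has a base of ATPases that unfold substrates and a lid that removes ubiquitin. Interferons and immune cells switch the core to the immunoproteasome, in which Psmb8 takes the place of Psmb5, Psmb9 that of Psmb6 and Psmb10 that of Psmb7, a form known for making peptides for MHC class I presentation.

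The muscle was the gastrocnemius of the calf, taken from female C57BL/6 mice, and its RNA was read on 56 arrays. Exposed mice breathed 4% mainstream cigarette smoke through the nose, and sham mice breathed air, for 2 hours a day on 5 days a week. There were 9 groups of 6 mice each: untreated mice at week 0, air and smoke at 2, 12 and 24 weeks, and 2 cessation arms with 12 weeks of smoke and then 12 weeks labelled FA or RA, a period that the study's design text describes as sham exposure for the cessation mice without naming the arms. The exception was smoke at 12 weeks, with 7 mice, 1 of them (mouse G8 by its title) on 2 arrays that were averaged, so that 55 mice were compared. The labels also use FA for the groups called air here, at 2, 12 and 24 weeks, and RA for that cessation arm only. The sources used here spell out neither FA nor RA, give no age, and name no genetic change. RNA was taken from separate mice, so the spread between samples is that between animals.

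The immune subunit genes Psmb8 and Psmb9 lie next to the peptide transporter genes Tap1 and Tap2 on chromosome 17, in the MHC class II region. The 2 upstream sequences that follow are shown because these genes varied most among the members. Both are from RefSeq, assembly GRCm38.p6, written 5′ to 3′ in the direction of the Psmb gene. The first, chr17:34187331-34187555 on the minus strand, is the whole stretch of 225 bases between the annotated starts of Psmb9 and Tap1, which point away from each other. Its capitals mark a GC box (GGGCGG) and a CCAAT box read on the other strand (ATTGG).
Psmb9-Tap1: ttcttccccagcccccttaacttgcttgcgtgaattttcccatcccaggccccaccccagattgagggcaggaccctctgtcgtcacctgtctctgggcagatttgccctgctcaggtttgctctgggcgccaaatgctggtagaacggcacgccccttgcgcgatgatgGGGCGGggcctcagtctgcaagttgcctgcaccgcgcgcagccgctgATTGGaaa
The next, chr17:34198053-34198151 on the plus strand, is a stretch of 99 bases before the start of Psmb8. Its capitals mark a match to the gamma-interferon activation site letters, TTCNNNGAA, which ends 88 bases before the annotated start.
Psmb8: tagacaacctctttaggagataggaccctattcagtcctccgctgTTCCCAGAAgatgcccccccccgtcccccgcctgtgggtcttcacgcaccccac

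Promoter windows from 250 bases before to 50 bases after the start were held for 32 of the 39 members and for 27025 genes in all, and were searched on both strands. The gamma-interferon activation site letters were found in 2 of the 32 members, Psmb8 and Psmd2, and in 9.55% of all windows. The interferon-stimulated response element letters, a pair of GAAA runs with any 2 letters between them, were found in Psmb3, Psmd4 and Psmd9, 3 of 32 against 3.99% of all. The antioxidant response element core, TGACNNNGC, was found in 5 of 32 (Psmb5, Psmb6, Psmc6, Psmd12 and Psmd9) against 14% of all. The CCAAT box was in 13 of 32 members against 41.1% of all, and the GC box GGGCGG in 19 of 32 against 38.2% of all. These are matches of letters only, and the windows share some of them by base composition.

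Levels are given as log2 of the deposited intensity plus 16, with SDs between mice, and differences with SEs. Differences are on that log2 scale, which understates the change of dim genes. Probe sets differ in brightness, so the level of 1 gene is not set against that of another. The median intensity of an array was between 62.5 and 77.5, and precision is limited by how many arrays there are. A gene was tested if its mean level was above 5.71, the 40th percentile of all probe sets, which left 12347 genes, and it passed if its p in 1 limma model of all groups, adjusted by Benjamini-Hochberg, was under 0.05. The markers of muscle fibres, such as Acta1 and Ckm, had a mean between 13.33 and 13.57 on every array, whatever the group.

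On 12 arrays Glycam1, a gene of lymph node vessels, had an intensity above 2000. The lowest of the 12 was 6944 and the highest of the other 44 arrays was 307. The mean of 13 lymphocyte markers was 7.75 to 10.44 on the 12 arrays and 4.83 to 6.22 on the others. These arrays were 1 of untreated mice, 1 of air at 2 weeks, 2 of smoke at 12 weeks, 1 of air and 3 of smoke at 24 weeks, 1 of cessation FA and 3 of cessation RA. Every comparison is therefore given with all 55 mice and again with the 44 mice left when these arrays are left out, of mouse G8 the other array being kept. In bulk muscle, fewer cells of a type and less RNA per cell cannot be told apart.

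Of the 39 members, 37 passed the filter on low values. Psma8, the alpha subunit of testis, and Psmb11, the catalytic subunit of thymus, had mean levels of 5.05 and 4.53, lay below the filter and were not tested. The 7 alpha ring genes had means from 11.56 (Psma4) to 12.62 (Psma3), and the 7 beta ring genes from 10.74 (Psmb2) to 12.53 (Psmb7). In the base the means ran from 11.46 (Psmc5) to 12.50 (Psmc4), and in the lid from 9.56 (Psmd3) to 12.89 (Psmd6). The chaperones were measured at 8.08 (Psmd9), 8.53 (Psmd10) and 9.34 (Psmd5). The immune subunits were measured at 7.83 (Psmb9), 8.42 (Psmb8) and 9.45 (Psmb10). Psmc2 and Psmd11 were read by probe sets whose suffix marks sequence shared with other transcripts, so their values are uncertain.

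The constitutive members varied little between mice. Their median SD over the 55 mice was 0.105, against 0.211 for all genes tested. By role it was 0.0786 in the alpha ring, 0.0904 in the beta ring, 0.110 in the base and 0.137 in the lid. Psma3, an alpha subunit, had the smallest SD of all members, 0.0369, at the 0.227th percentile of the tested genes. Psmb8 had the largest, 0.899, at the 97.4th percentile, and Psmb9 followed with 0.898. Without the 12 arrays the median SD was 0.0854 for the constitutive members and 0.463 for the immune ones, against 0.150 for all genes. With and without these arrays, the immune medians lay above and the constitutive medians below that of all genes. These SDs were not matched for level. The constitutive members had mean levels from 9.56 to 12.89, while genes were tested from a mean level above 5.71. The part of level in the spread, between roles or against all genes, was not tested.

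The immune subunits were high on the arrays with Glycam1. Psmb8, the inducible counterpart of Psmb5, had a median of 9.81 on the 12 arrays and 8.01 on the other 44. Psmb9, the counterpart of Psmb6, had medians of 9.05 and 7.43, and Psmb10, the counterpart of Psmb7, of 9.77 and 9.28. For Psmb8 the 12 arrays lay between 9.09 and 11.74. The other 44 lay between 7.05 and 8.83, except replicate 3 of cessation FA at 10.45. For Psmb9 the 12 arrays lay between 8.5 and 11.31, and the others between 6.70 and 7.90, again except that mouse at 10.33. The groups of arrays overlapped for Psmb10, at 9.50 to 11.05 against 9.03 to 11.07. Mouse G8 had 1 array of each kind. Its Psmb8 was 10.06 on the array with Glycam1 and 7.74 on the other, its Psmb9 9.16 and 7.46, and its Psmb10 9.79 and 9.23. For the constitutive counterparts the difference between the medians of the 12 arrays and of the others lay below 0, at -0.08 for Psmb5, -0.21 for Psmb6 and -0.11 for Psmb7.

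**Figure D1:**
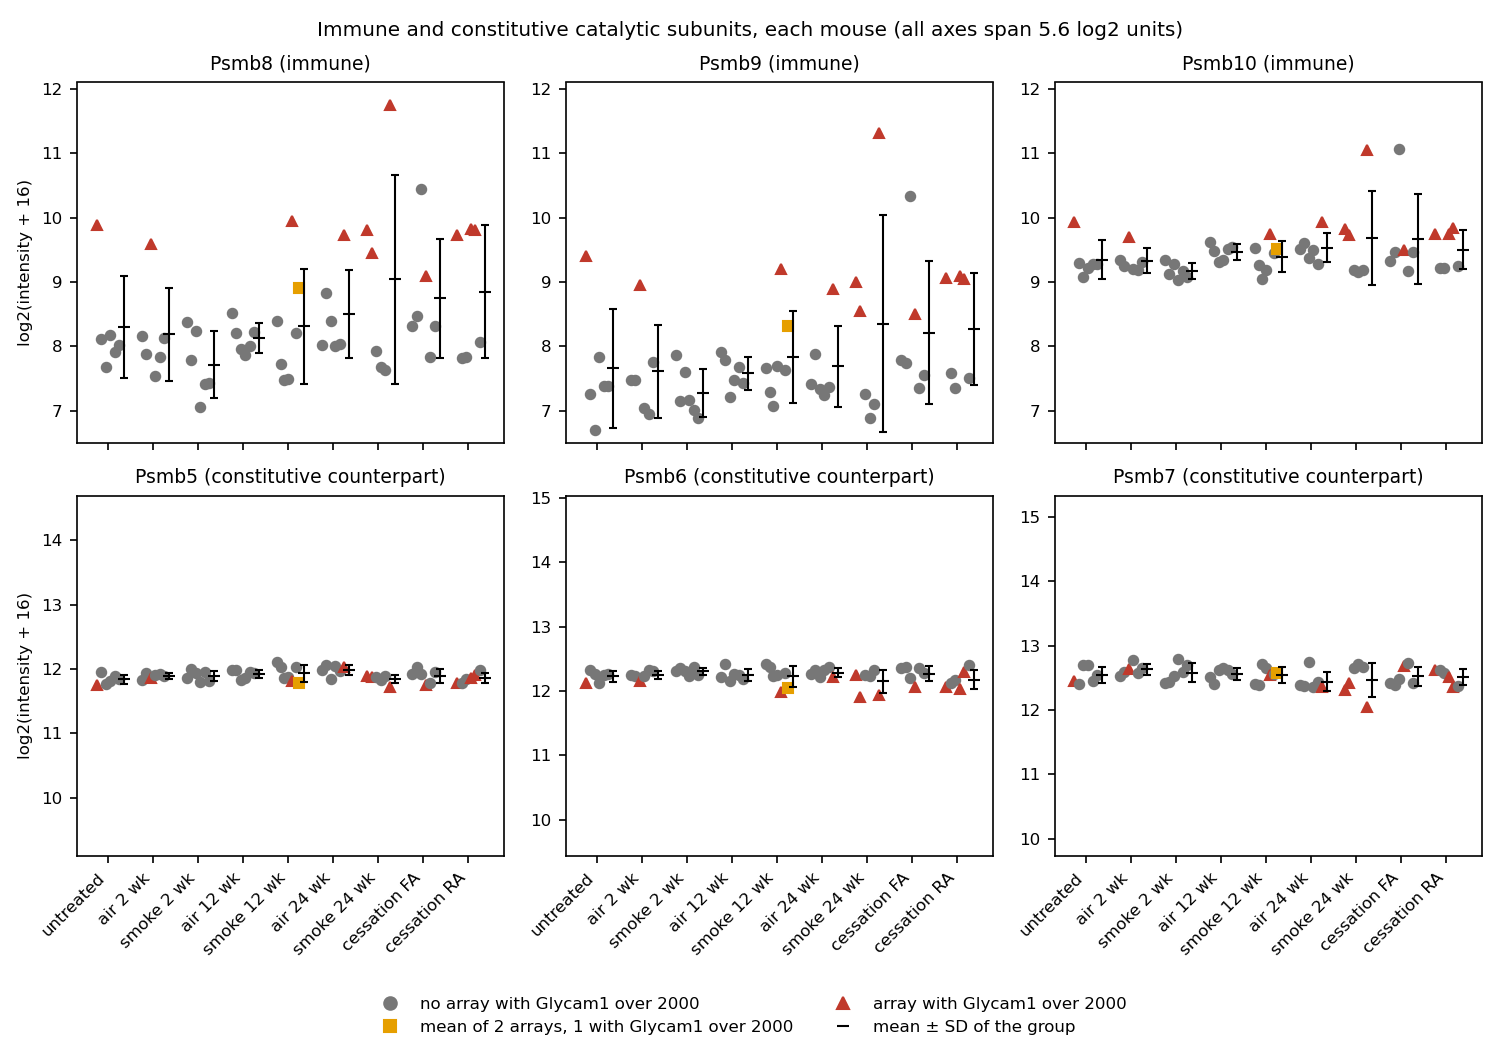
Level of the 3 immune subunits (top) and of the constitutive subunit each replaces (bottom) in each mouse by group, as log2 of intensity plus 16, with all axes spanning the same range. Triangles are mice whose array had Glycam1 over 2000, the square is mouse G8 and bars are the group mean with its SD over all mice of the group. Triangles sit high for Psmb8 (9.09 or above) and Psmb9 (8.5 or above) in every group that has them, and replicate 3 of cessation FA is the high grey point at 10.45 and 10.33.

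Lid genes went the other way on these arrays. Psmd7, the lid partner of the deubiquitinase Psmd14, had a median of 9.70 on the 12 arrays and 10.33 on the others. On 9 of the 12 arrays Psmd7 lay below the lowest of the other 44, which was 9.96, and in mouse G8 it was 8.84 on the array with Glycam1 and 10.41 on the other. The lid scaffold subunits Psmd13 and Psmd3 lay below all other arrays on 9 and 10 of the 12. Psmd7 had 3 probe sets and Psmd13 had 4, of which only the brightest is given here, while Psmd3 had 1. Of all genes tested, 3% had at least 9 of the 12 arrays below all others, and 3 of the 8 lid genes and 3 of the 31 constitutive genes did. The difference of medians was below 0 in 8 of 8 lid genes, with a median of -0.20, in 8 of 9 base genes, in 6 of 7 beta ring genes and in 5 of 7 alpha ring genes. Over all genes it was 0.0047. Psmc4, an ATPase of the base, was on the other side, at 12.64 against 12.48. In mouse G8 the array with Glycam1 minus the other had a median of -0.13 over the lid genes and -0.14 over the alpha ring. It was -0.18 over the beta ring, 0.014 over the base and 0.064 over all genes tested. In that mouse 7 of 8 lid, 5 of 7 alpha ring, 5 of 7 beta ring and 4 of 9 base genes were below 0. The 12 arrays were also high in adipocyte markers, whose mean was 11.06 to 12.33 against 8.74 to 12.20, and in macrophage markers, at 9.19 to 10.49 against 7.82 to 10.34. The part of each cell type in these differences was not tested.

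**Figure D2:**
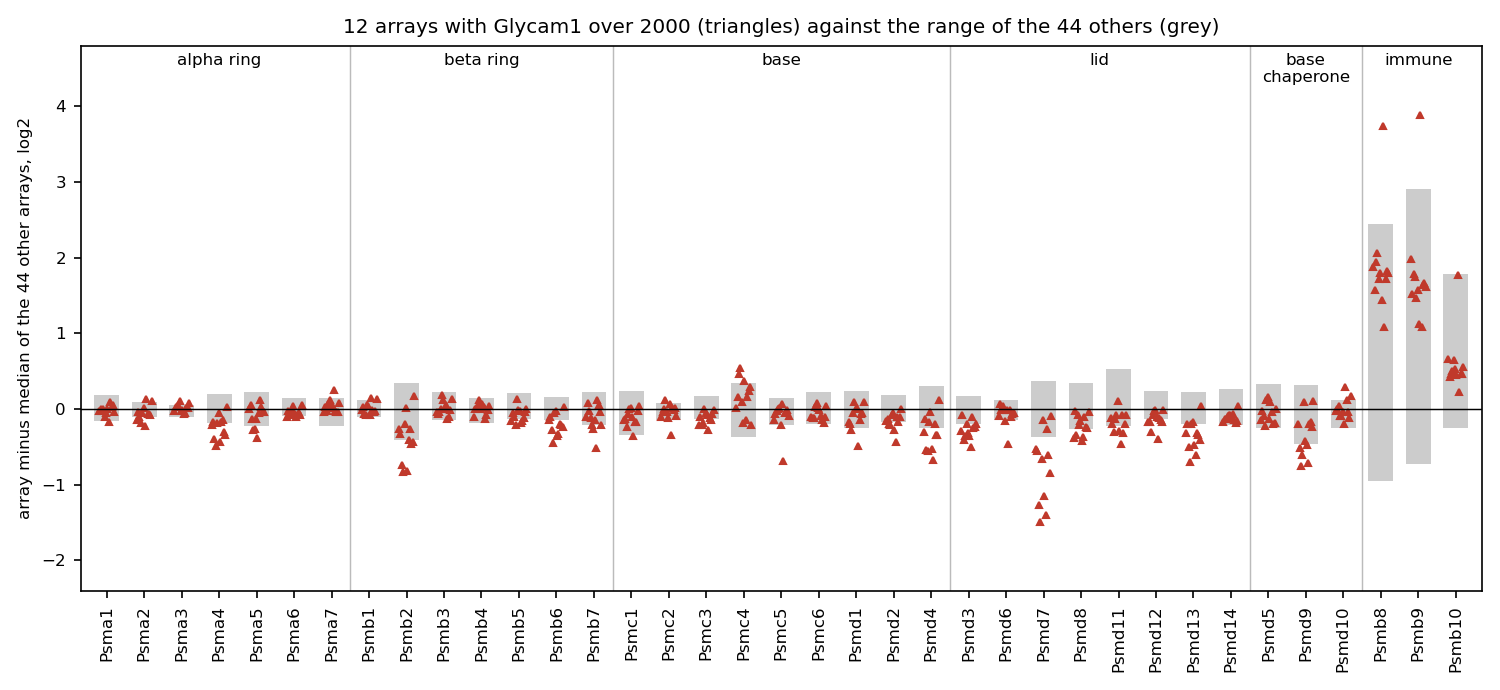
Each of the 12 arrays with Glycam1 over 2000 (triangles) for every tested member, as the log2 difference from the median of the other 44 arrays, whose full range is the grey bar. The immune genes Psmb8 and Psmb9 lie above 1, while most triangles of Psmd3, Psmd7 and Psmd13 lie below the grey bar.

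After 24 weeks of smoke 1 member passed the test against 24 weeks of air, the base chaperone Psmd9, and it was lower in smoke. Psmd9 binds the ATPase Psmc3 during assembly of the base. It was measured between 8.03 and 8.30, with a median of 8.19, in the 6 air mice, and between 7.44 and 7.96, with a median of 7.71, in the 6 smoke mice. All smoke mice lay below all air mice. The difference was -0.45 ± 0.11, a ratio of 1.37, with an adjusted p of 0.047 (limma). Of all genes 0.47% passed in this comparison, against 1 of 37 members. Without the arrays with Glycam1, the 3 smoke mice left still lay below the 5 air mice left (7.70 to 7.96 against 8.03 to 8.30), the difference was -0.34 ± 0.11 and the adjusted p was 0.092, where 0.364% of all genes passed and 0 members did.

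Psmd9 was also lower after 24 weeks of smoke than in either cessation arm, comparisons that share the same smoke mice. It was measured at 7.95 to 8.45 with a median of 8.27 in cessation FA and at 7.92 to 8.45 with a median of 8.17 in cessation RA. In each case 5 of the 6 smoke mice lay below all cessation mice, so the groups overlapped by 1 mouse of smoke. The difference was -0.53 ± 0.11 against FA, with an adjusted p of 0.0069 (limma), and -0.44 ± 0.11 against RA, with 0.021. It was the 1 member to pass in each, where 3.55% and 2.34% of all genes passed. It passed again when the arrays with Glycam1 were left out, at -0.49 ± 0.11 (adjusted p 0.012) and -0.45 ± 0.12 (adjusted p 0.031), where 1.9% and 3.28% of all genes passed, and the 3 smoke mice lay below all cessation mice. Against air at 24 weeks neither cessation arm differed past the threshold in Psmd9, at 0.08 ± 0.11 for FA and -0.01 ± 0.11 for RA.

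The call on Psmd9 rests on 1 of its 3 probe sets. The probe set used, of mean level 8.08, fell as above. At 24 weeks of smoke against air the other two differed by -0.25 ± 0.20 and 0.13 ± 0.12, and neither passed. With the mean of the 3 probe sets the difference was -0.19 with an adjusted p of 0.21, and against FA and RA it was -0.30 and -0.32 with adjusted p of 0.056 and 0.060 (limma). Psmd9 was among the genes that were low on arrays with Glycam1, 5 of the 12 lying below all others, and 3 of the 6 smoke mice but 1 of the 6 air mice at 24 weeks had such an array. Left out in turn, 7 of the 12 mice of smoke and air at 24 weeks each took the adjusted p to above 0.05, which then ran from 0.027 to 0.20 over the 12. They were smoke replicates 5 and 6 and air replicates 1, 2, 4, 5 and 6.

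**Figure D3:**
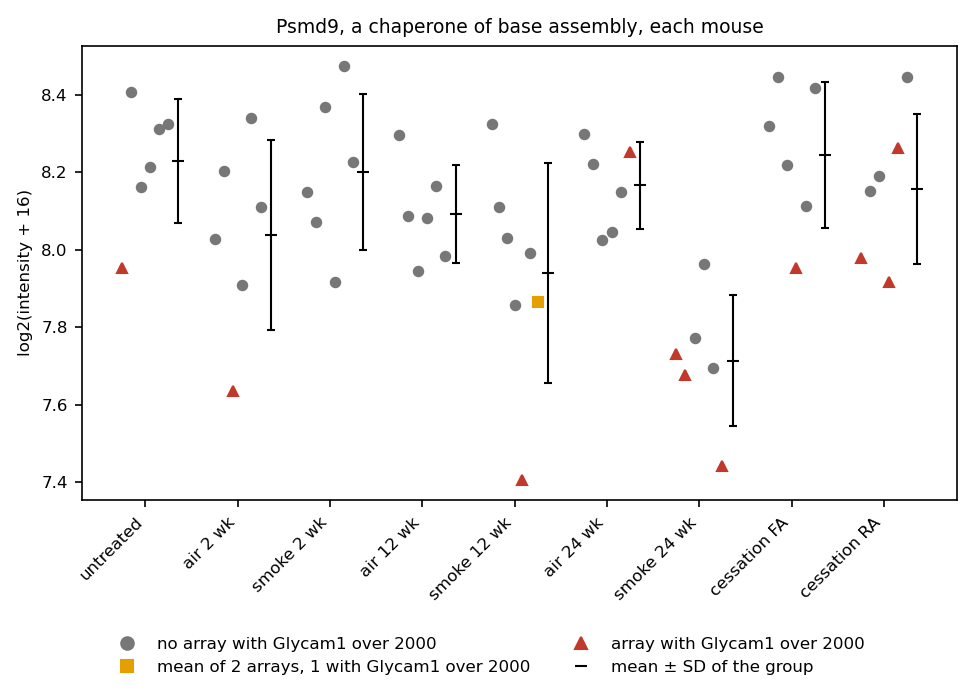
Level of Psmd9 in each mouse by group, as log2 of intensity plus 16, with the mean and SD of each group over all its mice. Triangles are mice whose array had Glycam1 over 2000 and the square is mouse G8. The 6 mice of smoke at 24 weeks sit between 7.44 and 7.96, below the 6 air mice of 24 weeks at 8.03 to 8.30.

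None of the other members passed after 24 weeks of smoke. At an unadjusted p under 0.05, 12 of 37 members were lower and 1 was higher, where 16.5% of all genes tested were lower and 8.17% higher at that p. The lid held 5 of the 12, the base 4, the beta ring 2, the chaperones 1 and the alpha ring 0. The median difference of the 31 constitutive members was -0.11, with 5 above 0, while the median of all genes was -0.03. Psmd2, a scaffold of the base, had the lowest p of the constitutive genes. It was measured between 12.22 and 12.38 with a median of 12.30 in air and between 11.88 and 12.26 with a median of 12.19 in smoke, so the groups overlapped, and the difference was -0.18 ± 0.06 with an adjusted p of 0.076. Of the catalytic genes Psmb5 differed by -0.14 ± 0.05, Psmb6 by -0.14 ± 0.07 and Psmb7 by 0.03 ± 0.09. Psmd7 differed by -0.42 ± 0.21, and the 2 smoke mice below all air mice, at 9.18 and 8.93, both had an array with Glycam1. The higher member was Psmd10, the chaperone also known as gankyrin, at 0.13 ± 0.06.

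With the arrays with Glycam1 left out, the counts at that p were 5 lower and 5 higher of 37, where 9.33% of all genes were lower and 11.2% higher. The 5 lower were Psmb2, Psmb3, Psma7, Psmd2 and Psmd9, and the 5 higher were Psma1, Psma5, Psmb7, Psmc2 and Psmd10. The constitutive median was -0.07, with 8 of 31 above 0, and the lid median moved from -0.16 to -0.07. The base median moved from -0.12 to -0.07 and the alpha ring median stayed at -0.02. Psmd7 was then -0.20 and Psmb7 0.22 ± 0.09, neither past the threshold.

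**Figure D4:**
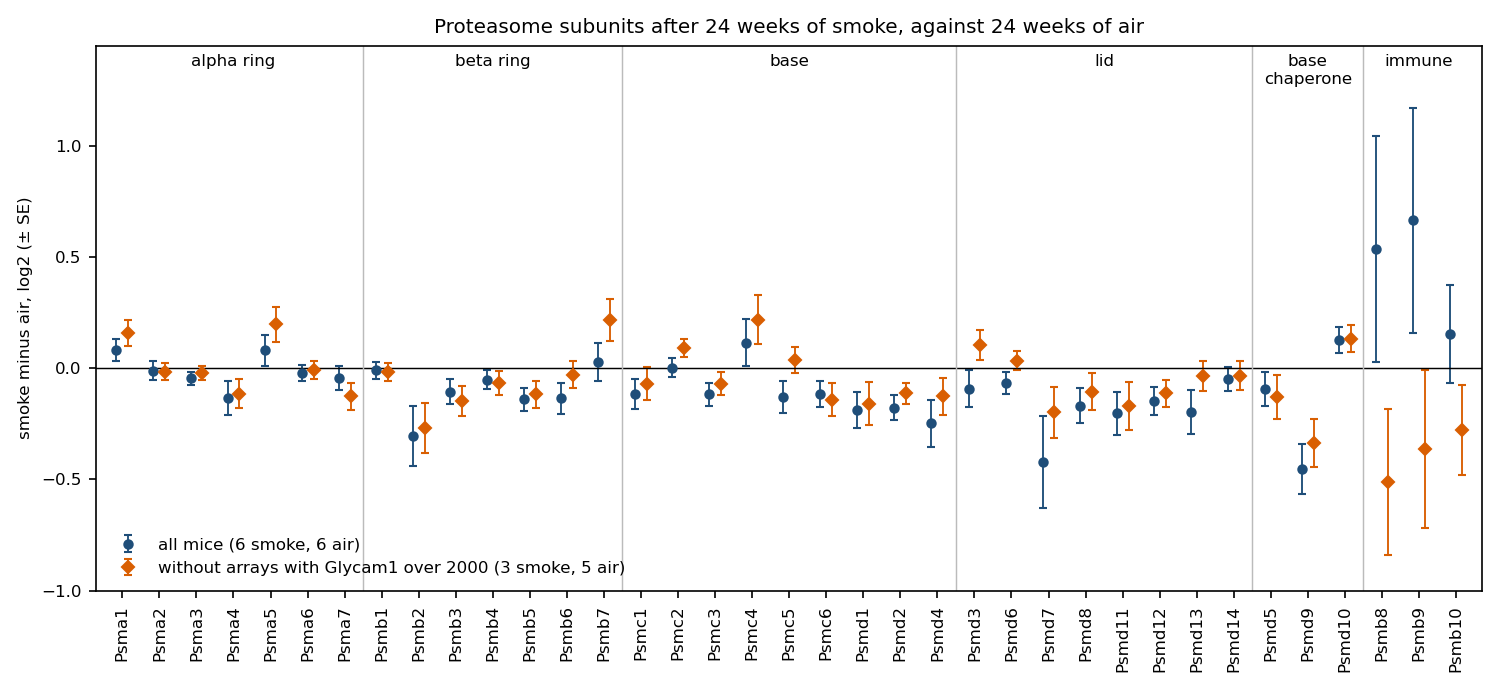
Difference between 24 weeks of smoke and 24 weeks of air for each tested member, in log2 units with its SE, with all mice (circles, 6 against 6) and without arrays with Glycam1 over 2000 (diamonds, 3 against 5). Most constitutive members lie a little below 0, Psmd9 lies at -0.45 and -0.34, and the 3 immune genes lie above 0 with all mice and below 0 without those arrays.

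The immune subunits did not pass at any time, and at 24 weeks the sign of their difference hung on the arrays with Glycam1. At 24 weeks Psmb8 was 8.01 to 8.83 in the 5 air mice without Glycam1 and 9.73 in the sixth. In smoke it was 7.93, 7.67 and 7.64 in the 3 mice without and 9.81, 9.45 and 11.74 in the 3 with Glycam1. Among mice without such an array, smoke lay below air, and those with it lay above in both groups. The difference was 0.54 ± 0.51 with all mice and -0.51 ± 0.33 without those arrays (adjusted p 0.50 and 0.37, limma). For Psmb9 it was 0.66 ± 0.51 and -0.36 ± 0.36, and for Psmb10 0.15 ± 0.22 and -0.28 ± 0.20. The 11 tested genes of MHC class I presentation moved with them, with a median of 0.27 (11 of 11 above 0) and then -0.21 (1 of 11 above 0), and none of these passed. The mean of the lymphocyte markers was 4.91 to 8.55 in air and 4.95 to 10.44 in smoke with all mice, and 4.91 to 5.11 and 4.95 to 5.32 without. That of the macrophage markers was 8.64 to 9.59 in air and 8.65 to 10.49 in smoke with all mice, and 8.64 to 9.35 and 8.65 to 9.04 without. The 8 macrophage markers had a median difference of 0.25 with 7 above 0, and of -0.22 with 1 above 0 without those arrays, so their sign turned along with that of the immune subunits, and none passed. The part of these cells in the immune subunit differences was not tested.

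At 2 weeks no member passed (0 of 37 in limma, and 0 at an unadjusted p under 0.05), where 0% of all genes passed and 2.07% were at that unadjusted p. The lowest p was that of Psma4, an alpha subunit, which differed with an adjusted p of 1.00. Psmb8 was 7.54 to 9.59 with a median of 8.00 in air and 7.05 to 8.37 with a median of 7.61 in smoke, and the groups overlapped. Its difference was -0.47 ± 0.51, and -0.19 ± 0.27 without the arrays with Glycam1, when 0% of all genes passed and 1 member, Psmd7, had an unadjusted p under 0.05, as did 5.01% of all genes. The constitutive median was 0.04, and 0.03 without those arrays. The constitutive catalytic genes Psmb5, Psmb6 and Psmb7 differed by 0.00 ± 0.05, 0.06 ± 0.07 and -0.05 ± 0.09.

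At 12 weeks the count was again 0 of 37 (limma, and 0 at an unadjusted p under 0.05), where 0.0081% of all genes, 1 gene, passed and 1.86% were at that unadjusted p. Psmb8 was 7.86 to 8.51 with a median of 8.10 in air and 7.48 to 9.95 with a median of 8.21 in smoke, and smoke spanned the air group. Psmb8 differed by 0.18 ± 0.49, Psmb9 by 0.26 ± 0.49 and Psmb10 by -0.08 ± 0.21. With those arrays left out they differed by -0.29 ± 0.26, -0.11 ± 0.28 and -0.18 ± 0.16, when 0.0081% of all genes passed. The member of lowest p was Psmd9, at -0.15 ± 0.11 and, without those arrays, -0.01 ± 0.09; Psmd13 then had the lowest p, with an adjusted p of 0.55. The constitutive medians were -0.01 and 0.03.

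Averaged over the 3 times, smoke and air did not differ past the threshold in any member (0 of 37 in limma, 1 at an unadjusted p under 0.05), where 0.0324% of all genes passed and 9.17% were at that unadjusted p. That member was Psmd9, at -0.15 ± 0.06 with an adjusted p of 0.52. Leaving out the arrays with Glycam1, 0.154% of all genes passed, 0 members did, and the 1 member at an unadjusted p under 0.05, against 13.2% of all genes, was Psma5, 0.10 ± 0.04. The change of the smoke difference from 2 to 24 weeks was tested as an interaction, in which 0.0324% of all genes passed, and 0 of 37 members (limma). At an unadjusted p under 0.05 there were 13 members, all of them below 0, where 11.1% of all genes were below 0 at that p. Psmd9 had the lowest p there, at -0.62 ± 0.16 with an adjusted p of 0.14, and -0.42 ± 0.14 with 0.14 without those arrays, when 0.146% of all genes passed and 5 members were above and 7 below 0 at that unadjusted p, against 9.9% and 7.35% of all genes. The constitutive median of the interaction was -0.14, and -0.11 without.

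In the cessation arms no member differed past the threshold from air at 24 weeks, a control that both arms share with the smoke group. For FA 0.081% of all genes passed, and 0 of 37 members (limma). At an unadjusted p under 0.05 there were 2 members, against 7.01% of all genes, of which Psmd10 had the lower p, at 0.16 ± 0.06 with an adjusted p of 0.46. For RA 1.76% of all genes passed, and 0 of 37 members. At that unadjusted p there were 7 members, against 13.7% of all genes, of which Psmb4, a beta ring subunit, had the lowest, at -0.10 ± 0.04 with an adjusted p of 0.23. Without the arrays with Glycam1 the shares of all genes were 0.235% for FA and 3.97% for RA, and 0 members passed, with 2 and 3 at that p against 10.8% and 20.6% of all genes. Psma7 in RA had the lowest, at -0.17 ± 0.06 with an adjusted p of 0.10. The constitutive medians were -0.04 for FA and -0.07 for RA, and -0.02 and -0.04 without those arrays. Between the arms no member passed (0 of 37, and 0 at that p), where 0.0243% of all genes did and 4.15% were at that p. Without those arrays 0 members and 0.0324% of all genes passed, and 2 members and 7.42% of all genes were at that p.

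Replicate 3 of cessation FA had high immune subunits and no Glycam1. Its Psmb8 was 10.45, where the other 4 FA mice without Glycam1 lay between 7.83 and 8.47, its Psmb9 was 10.33 against 7.35 to 7.79, and its Psmb10 11.07 against 9.17 to 9.46. The macrophage marker mean of that mouse was 10.34, the highest of the 44 arrays without Glycam1, as was its MHC class I mean of 11.17 and its lymphocyte mean of 6.22. Against air, FA differed by 0.24 ± 0.51 in Psmb8 and 0.52 ± 0.51 in Psmb9 with all mice, and by 0.42 ± 0.28 and 0.71 ± 0.31 without the arrays with Glycam1. With that mouse left out as well the differences were -0.03 and 0.16, and that of Psmb10 was -0.10. In RA, Psmb8 was 7.82, 7.84 and 8.07 in the mice without Glycam1 and 9.73, 9.81 and 9.83 in those with it, and the difference from air went from 0.34 ± 0.51 to -0.35 ± 0.33 without those arrays.

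Between untreated mice and 2 weeks of air, and between 2 and 24 weeks of air, no member passed the threshold. From untreated mice to 2 weeks of air 0.518% of all genes passed and 0 of 37 members (limma), with 3 at an unadjusted p under 0.05 against 7.39% of all genes. Psmd8, a lid subunit, had the lowest p of these, at 0.22 ± 0.08 with an adjusted p of 0.28. In the 44 mice left without the arrays with Glycam1, 1.94% of all genes and 0 members passed, again with 3 at that p against 13.9% of all genes, and Psmc5, an ATPase of the base, had the lowest, at 0.15 ± 0.05 with 0.12. From 2 to 24 weeks of air 0.219% of all genes passed and 0 of 37 members, with 4 at that p against 11.8% of all genes, and Psmb3, a beta ring subunit, had the lowest, at 0.16 ± 0.06 with an adjusted p of 0.26. Without those arrays 2.71% of all genes and 0 members passed, with 4 at that p against 20.8% of all genes, and Psmd6, a lid subunit, had the lowest p, at -0.11 ± 0.04 with 0.093. Psmb8 in untreated mice was 7.67 to 9.88 with a median of 8.06, and in air at 24 weeks 8.01 to 9.73 with a median of 8.21, so these groups overlapped as well.

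Across the 44 mice without the arrays with Glycam1, taken as deviations from their group means, the immune subunits rose and fell together. Pearson's r was 0.878 for Psmb8 with Psmb9, 0.887 for Psmb8 with Psmb10 and 0.90 for Psmb9 with Psmb10, and Spearman's rho was 0.768, 0.807 and 0.732. Of 13 relations computed, the permutation p of r in these 3 was 2e-05, 1e-05 and 1e-05, the last being the smallest that 100000 resamples can give, and 4.33e-05, 2.6e-05 and 2.6e-05 after Benjamini-Hochberg adjustment. The p of rho was 2e-05, 1e-05 and 3e-05. Without the 2 mice farthest from the median in the gene named first of each pair, r was 0.734, 0.774 and 0.713. In the relations that follow, the 2 mice were those farthest in the MHC class I mean or in Tap1. With the mean of the MHC class I genes r was 0.909 for Psmb8, 0.949 for Psmb9 and 0.902 for Psmb10 (rho 0.847, 0.888 and 0.701, adjusted permutation p of r 2.6e-05, 2.6e-05 and 5.57e-05), and 0.806, 0.865 and 0.693 without the 2 farthest mice. Psmb9 and Tap1, which share the upstream stretch printed above, had r 0.922 (rho 0.777, adjusted permutation p 2.6e-05), and 0.803 without the 2 farthest. Psmb10, whose r with Psmb9 was 0.90, lies on chromosome 8, away from that stretch. The part of the shared stretch in these relations was not tested.

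Marker genes of immune cells varied with the immune subunits too. With the lymphocyte mean r was 0.650 for Psmb8, 0.625 for Psmb9 and 0.694 for Psmb10 (rho 0.411, 0.354 and 0.355, adjusted permutation p of r 0.0046, 0.0094 and 0.0054, and of rho 0.020, 0.040 and 0.045). With the macrophage mean it was 0.560, 0.644 and 0.633 (rho 0.276, 0.335 and 0.324, adjusted permutation p of r 0.023, 0.0094 and 0.023). By rank none of the 3 macrophage relations passed, with adjusted permutation p of rho of 0.104, 0.061 and 0.064. Without the 2 mice farthest in the lymphocyte mean, r with that mean fell to 0.370, 0.406 and 0.434. Without the 2 farthest in the macrophage mean, r with that mean fell to 0.242, 0.373 and 0.312. A large share of these relations thus rests on the mice left out, which were chosen for each marker mean separately. The same mice and arrays enter all of these relations.

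Among the constitutive members, pairs of genes had a median r of 0.404 across the same 44 mice, over 465 pairs, with 337 above 0. Pairs of all tested genes had a median of 0.0106. Constitutive pairs ran from -0.850 to 0.899, so the members did not move as 1 block, and pairs of an immune with a constitutive gene had a median of 0.106. The alpha ring pairs had a median of 0.141, the beta ring pairs 0.429, the base pairs 0.436 and the lid pairs 0.357. These values are a description: the genes of an array share its RNA and its labelling.

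Many members also followed the number at the end of the sample title, whose meaning the labels do not give and which was looked at after the data were seen. In a limma fit with the groups and this number, over the 44 mice, 35.5% of all genes had a slope past the threshold. Of the 37 members 20 did, 4 upward and 16 downward, and of the 3 immune subunits 0 did. Psmb7 rose by 0.0208 per 10 numbers and Psmb3 fell by 0.0130 per 10 numbers (adjusted p 1.69e-07 and 1.85e-05). Psmb2, Psmb3, Psmd2 and Psmd9, named above as lower in smoke at 24 weeks without the arrays with Glycam1, had downward slopes past the threshold. For Psmd9 the slope was -0.0137 per 10 numbers (adjusted p 0.013, limma). Psma1, Psma5 and Psmb7, named there as higher, had upward slopes past it. Psma7, Psmc2 and Psmd10, also named there, had no slope past the threshold. The number was not balanced between groups at 24 weeks. Over all 6 mice of each group its median was 131.5 in smoke and 35 in air, and the ranges overlapped. Without the arrays with Glycam1, the smoke mice left all had higher numbers than air replicates 1, 2, 4 and 5. Of the air mice left, only replicate 3 lay within the range of the smoke mice, so in this fit the number and smoke were largely confounded at 24 weeks. With the number in the fit and without the arrays with Glycam1, the constitutive median of smoke against air at 24 weeks was 0.0046 in place of -0.07. The difference of Psmd9 was then -0.21 with an adjusted p of 0.69, and -0.38 with 0.073 against FA and -0.37 with 0.055 against RA. What the number stands for, and its part in these differences, was not tested.

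**Figure D5:**
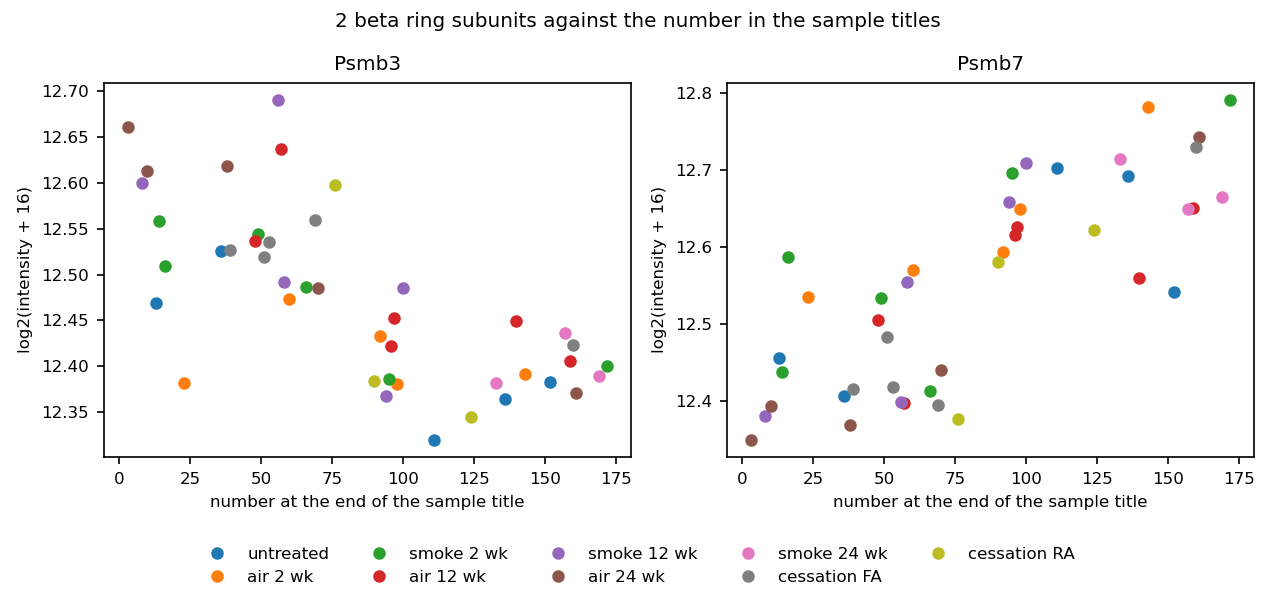
Level of Psmb3 (left) and Psmb7 (right), as log2 of intensity plus 16, against the number at the end of the sample title in the 44 mice without an array with Glycam1 over 2000, coloured by group. Psmb3 is lower and Psmb7 higher at high numbers, and the 3 mice of smoke at 24 weeks all lie to the right.

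The factors around the proteasome were given by a list of 33 partner genes, of which 26 were tested. They include activators, assembly factors, shuttle proteins, ubiquitin and its processing enzymes, and regulators of subunit transcription. In smoke against air none passed at 2, 12 or 24 weeks, with 1, 1 and 6 of 26 at an unadjusted p under 0.05, where 2.07%, 1.86% and 24.7% of all genes were at that p. At 24 weeks the 2 of lowest p were Ecpas, a proteasome scaffold protein, at -0.35 ± 0.10 with an adjusted p of 0.060, and Psmg1, a chaperone of alpha ring assembly, at -0.25 ± 0.07 with 0.069 (limma). Smoke at 24 weeks gave 1 call of 26 against cessation FA and 3 of 26 against RA, where 3.55% and 2.34% of all genes passed. Nfe2l2, which encodes the stress-response factor NRF2, was higher in smoke by 0.24 ± 0.07 against FA (adjusted p 0.041) and by 0.25 ± 0.07 against RA (0.043). Against RA the activator Psme4 was lower by -0.20 ± 0.06 (0.034), and Akirin2, which brings proteasomes into the nucleus, by -0.20 ± 0.05 (0.017). In the 44 mice without the arrays with Glycam1, Akirin2 passed against RA again, at -0.29 ± 0.06 (adjusted p 0.0047, limma). It was higher in RA than in air by 0.23 ± 0.05 (0.010). Of all genes 3.28% and 3.97% passed in these comparisons. In the same mice Akirin2 was also lower by -0.17 ± 0.05 at 2 weeks of air than in untreated mice (0.040), where 1.94% of all genes passed. Nfe2l2 and Psme4 passed in no comparison without those arrays. The muscle ubiquitin ligases Trim63 and Fbxo32, which tag proteins for the proteasome in atrophy, did not pass in smoke against air at 24 weeks, with differences of -0.27 ± 0.15 and -0.30 ± 0.22, and of 0.06 ± 0.11 and -0.23 ± 0.24 without those arrays. Fbxo32 was lower at 2 weeks of air than in untreated mice, by -1.05 ± 0.22 with all mice (0.0072) and by -0.94 ± 0.21 without (0.0093). Of all genes 0.518% passed there with all mice and 1.94% without those arrays. From 2 to 24 weeks of air Fbxo32 differed by 0.89 ± 0.22 with all mice, which did not pass (adjusted p 0.062, limma). Without those arrays it differed by 0.80 ± 0.21, which did (0.030). The shares of all genes that passed were 0.219% and 2.71%.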

How the data were processed

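The values are intensities per probe set on a linear scale, as deposited by the authors; no source used here says how probes were summarised and scaled. Per the labels' protocols RNA was amplified and biotin-labelled. Values were floored at -15 (5 of 2522072 moved), 16 was added and log2 taken. Among 45037 probe sets in the value file, 34945 had a single gene symbol in the platform annotation, 932 several and 9160 none, and only those with a single symbol were used. Each of 18193 genes was read by its brightest probe set on average, and 12347 genes above 5.71 were tested.

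Groups came from the labels. A limma fit of all 9 groups (46 residual degrees of freedom, 48.2 after moderation; 35 and 37.5 without the arrays with Glycam1) gave 12 comparisons, adjusted by Benjamini-Hochberg over all genes, and was tested on simulated data. Correlations used deviations from group means, permuted within groups.

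The members, lists and tests were chosen with earlier results of these data known. Named in full were the immune subunits and their counterparts, members that passed or else that of lowest p per comparison, the highest and lowest by level in each role, and those of largest and smallest spread. Of partners, those that passed or the 2 of lowest p were named. Alternatives were the arrays with Glycam1 left out, quantile normalization, pseudocounts 1 and 64, no filter, the mean of probe sets, only the groups compared, 1 array of mouse G8, the lymphocyte mean as a covariate, robust moderation with a trend and each mouse left out. Added after seeing the data were the title number as a covariate, alone and without the arrays with Glycam1, every probe set tested, and cessation FA replicate 3 left out. R 4.3.3, limma 3.58.1, the package data.table (1.17.8), Python 3.11.15, numpy 2.4.6, scipy 1.17.1, pandas 2.3.3 and matplotlib 3.10.9 were used.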

Additional observations from a re-analysis of the deposited data

Results flagged for a closer look

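Each set of mice checked was a group of mice for a catalytic subunit, constitutive or immune, for Psmd9 or for the mean of a role. In 12 of 99 sets 1 mouse stood apart by Dixon's ratio of gap to range. For a single set chance gives about 1 in 20. The sets share mice and genes, and the immune subunits varied together, so the 12 are not separate events and cannot be weighed against that rate. Among the 12, 5 were immune subunits on arrays with Glycam1. They were Psmb8 at 9.88 in untreated replicate 1 and 9.59 in air at 2 weeks replicate 3, and Psmb10 at 9.94 and 9.70 in the same mice and at 11.05 in smoke at 24 weeks replicate 6. Psmb10 at 11.07 in cessation FA replicate 3 stood apart on an array without Glycam1.

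Of the constitutive catalytic subunits, Psmb6 was 12.43 in air at 12 weeks replicate 2, where the nearest mouse had 12.26. Psmb7 was 12.74 in air at 24 weeks replicate 3, where the nearest had 12.44.

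Role means stood apart in 4 mice. The alpha ring mean was 12.08 in air at 12 weeks replicate 2, above its group, and 11.84 in smoke at 24 weeks replicate 2, below it. The beta ring mean was 11.84 in cessation FA replicate 4 and the base mean 11.67 in smoke at 24 weeks replicate 6, both below their groups. All of these but the first were on arrays with Glycam1.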

How the results depend on the processing

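The 1 member that passed in smoke against air at 24 weeks, Psmd9, fell to 0 members without the arrays with Glycam1, with quantile normalization, with pseudocount 64, with no filter, with the mean of probe sets, with only the groups compared, with the lymphocyte mean or the title number as a covariate, and with robust moderation. Against cessation FA and against RA the count of 1 went to 0 with the mean of probe sets, with only the groups compared, and with the title number and no arrays with Glycam1. With each mouse left out the count ran from 0 to 2 against air (Psmd2 joined Psmd9 without smoke replicate 1 or 3), was 1 each time against FA, and ran from 0 to 1 against RA (0 without smoke replicate 6 or RA replicates 3 or 6). The probe set used for Psmd9, and the mean of its 3 probe sets, stayed below 0 in these 3 comparisons under every alternative run on them, with adjusted p (limma) between 0.0028 and 0.69. One of its other probe sets was above 0 against air, at 0.13, and without the arrays with Glycam1 both others were, at 0.022 and 0.22, as was 1 against FA at 0.073; none of these passed. With only the groups compared, which leaves fewer mice to estimate the spread, it was 0.46, 0.22 and 0.33 against air, FA and RA. With every probe set tested the adjusted p of Psmd9 against air was 0.057.

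With the title number and no arrays with Glycam1, the constitutive median was 0.0046 for smoke against air at 24 weeks and -0.014 for the change of that difference from 2 weeks.

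Signs of immune subunits turned as follows, and the cause was not tested. Without the arrays with Glycam1 Psmb8 was -0.51, Psmb9 -0.36 and Psmb10 -0.28 at 24 weeks, Psmb8 -0.29 and Psmb9 -0.11 at 12 weeks, and Psmb8 -0.35 in RA against air. With the lymphocyte mean as a covariate these were -0.28, -0.12, -0.13, -0.33, -0.23 and -0.37, and Psmb9 in RA was -0.10. With the title number and no arrays with Glycam1 they were -0.24, -0.19, -0.13, -0.34, -0.15 and -0.24. With the title number alone Psmb10 in RA was 0.065. Without those arrays and without cessation FA replicate 3, Psmb8 was -0.028 and Psmb10 -0.10 in FA, and Psmb8 stayed at -0.35 in RA. With each mouse left out, Psmb8 ran from -0.0037 to 0.82 at 24 weeks, from -0.092 to 0.32 at 12 weeks and from -0.10 to 0.48 in FA, and Psmb10 from -0.12 to 0.26 at 24 weeks, from -0.15 to 0.23 in FA and from -0.098 to 0.050 in RA. None of these immune differences passed in any fit.

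No paired analysis was possible because each mouse belonged to a single group. The replicate numbers used here are not in the labels and follow the order of the samples within a group. Probe sets near background limit what can be seen of Psma8 and Psmb11.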
